A study of Saccharomyces cerevisiae with 14 samples.

Results

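The 34 genes described here encode the proteasome of budding yeast and its transcription factor: the 14 subunits of the 20S core, the 10 of the 19S base and the 8 of the 19S lid in the list used, the alternative cap BLM10, and RPN4. They were taken as the genes of that list that had a probe set of their own in the array's annotation, and all 34 were measured, each by 1 probe set, among 5449 budding yeast genes. The strain was YSBN6, a wild type. It was grown in batch in a fermentor on minimal medium with glucose at 20 g/L and glutamine at 1 g/L. The culture was held at 30 °C and pH 5. When the optical density was near 1, rapamycin, which inhibits the TOR complex 1 kinase, was pulsed to 400 µg/L. The groups were steady state, sampled 10 min before the pulse, the early times of 3, 7, 10 and 14 min after it, and the later times of 24, 56 and 120 min. Of the 14 Affymetrix Yeast Genome 2.0 arrays, 3 were of steady state, 3 of 7 min and 3 of 24 min, from the separate fermentations BY005, BY006 and BY007. The other times had 1 array each, all from BY005. Each culture was its own control before the pulse, and none was left without rapamycin afterwards, so the drug, the pulse and the passing of time in batch culture cannot be told apart.

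The proteasome degrades proteins that carry ubiquitin chains. Its core is a stack of rings: the outer alpha rings gate the chamber, and the inner beta rings hold the proteolytic sites. The 19S cap binds, deubiquitinates and unfolds substrates, with the ATPases in its base and the deubiquitinase RPN11 in its lid. RPN4 encodes a zinc finger activator that binds the promoters of most proteasome genes. The Rpn4 protein is itself a short-lived substrate of the proteasome, which makes a feedback loop. TOR complex 1 promotes growth when nitrogen is plentiful, and its inhibition is known to raise protein breakdown by autophagy and by the proteasome. Only mRNA was measured here, so nothing below speaks of Rpn4 protein or of proteasome activity.

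The deposited values were brightnesses normalized by the authors so that the arrays have like distributions, and every level below is their log2. Levels of the 34 genes lay between 11.20 and 14.04, against a brightest probe set at 14.99. Probe sets annotated to a single gene that is not in the budding yeast reference were taken as background. They had a median of 4.42 and a 95th percentile of 5.77. Over the 3 arrays of a time, the SD of the log2 level had a median among the 34 genes of 0.04 at steady state, 0.05 at 7 min and 0.06 at 24 min. The hybridisation controls ranged from 8.72 to 11.83, also between arrays of the same time, and scaling to them moved the median difference of all genes by up to 1.94, for 56 min minus 24 min. That scaling shifts every gene of an array alike, and with it the median of the 34 genes was below 0 at 3, 10, 14 and 56 min against steady state and for 56 min minus 24 min. Rises and falls are therefore given relative to the overall distribution of each array, with the median of all genes beside them. Differences are from limma fitted to all genes and arrays, with its standard error after ±. A gene counted as higher or lower where the p adjusted by Benjamini-Hochberg over all 5449 genes was under 0.05. At times with 1 array the spread was borrowed from the replicated times, and no replicate stands behind such a value.

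At 24 min each of the 32 listed subunits of the core, the base and the lid stood above steady state, while the mRNA of their activator stood below it. All 32 subunits and BLM10 rose and RPN4 fell, so 33 of 34 genes were called higher, against 44.5% of all genes, and 1 was called lower, against 30.4%. The call of RPN4 against steady state did not hold when some single arrays were left out, as given below. The median difference of the 34 was 0.40, or 1.32-fold, and that of all genes was 0.11. In all 33 genes the 3 arrays of 24 min lay above the 3 of steady state, which 46% of all genes also showed. The median of the 32 subunits against the same fermentation at steady state was 0.44 in BY005, 0.35 in BY006 and 0.42 in BY007, and each of the 32 was above its own steady state in all 3. The changes were small and even: the 32 subunits rose between 1.15-fold and 1.51-fold, 5 of them by at least 1.4-fold and 1 by at least 1.5-fold. With the genes of budding yeast quantile-normalized on their own, the median of the 34 was 0.26 and that of all genes was 0.09. In that fit 28 of the 34 were called higher, and RPT4, RPN2, RPN3, RPN5 and RPN8 were no longer called.

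**Figure D1:**
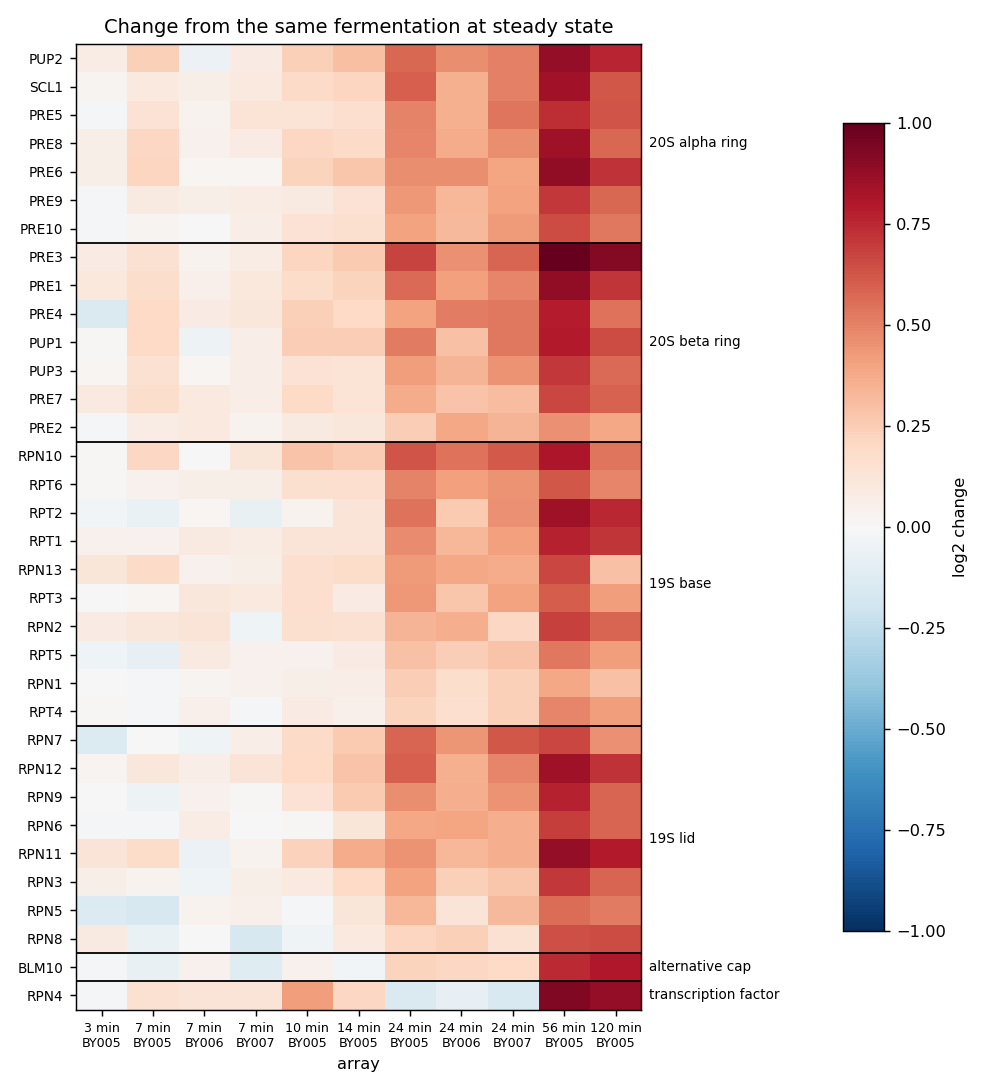
Change of the 34 genes (rows, grouped by subcomplex and ordered by their difference at 24 min) from the same fermentation at steady state on the 11 arrays taken after the pulse (columns); colour is the log2 difference, relative to each array's overall distribution, red higher and blue lower. The columns of 24, 56 and 120 min are red in every row but that of RPN4, which is blue in all 3 arrays of 24 min and red at 56 and 120 min.

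The alpha ring of the core was the most even group, with all 7 genes higher at 24 min and a median of 0.44. PUP2, an alpha ring subunit, had 13.12, 13.18 and 13.18 at 24 min in BY005, BY006 and BY007, against 12.54, 12.71 and 12.68 at steady state. The groups did not overlap, and PUP2 rose by the most in its ring (0.51 ± 0.06, 1.43-fold, adjusted p = 5.08e-05). PRE10, another subunit of the ring, rose by the least there (0.38 ± 0.05, adjusted p = 8.95e-05), with 13.37, 13.26 and 13.31 at 24 min against 12.97, 12.94 and 12.88 at steady state. The other 5 genes of the ring lay between them, with rises of 0.48 in SCL1, 0.46 in PRE5, 0.44 in PRE8, 0.44 in PRE6 and 0.39 in PRE9. PRE9 encodes the only core subunit that yeast can live without.

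In the beta ring all 7 genes were higher at 24 min, with a median of 0.45. PRE3, which encodes the subunit that cuts after acidic residues, had 13.71, 13.56 and 13.63 at 24 min, against 13.04, 13.10 and 13.04 at steady state. It rose 1.49-fold (0.57 ± 0.05, adjusted p = 1.15e-05), by the most in the ring. PRE2, which encodes the chymotrypsin-like subunit, had 13.47, 13.51 and 13.47 at 24 min, against 13.22, 13.12 and 13.14 at steady state. It rose 1.25-fold (0.32 ± 0.05, adjusted p = 0.000347), level with the inactive PRE7 (0.32 ± 0.06) at the low end of the ring. The remaining active subunit, the trypsin-like PUP1, rose by 0.45. The inactive subunits of the ring rose by 0.49 in PRE1, 0.48 in PRE4, 0.40 in PUP3 and 0.32 in PRE7.

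In the base all 10 genes were higher at 24 min, with a median of 0.38 and a wider range than in the core. RPN10, a ubiquitin receptor that lies between base and lid, had 12.76, 12.66 and 12.71 at 24 min, against 12.14, 12.11 and 12.10 at steady state. It rose 1.51-fold (0.60 ± 0.06, adjusted p = 3.11e-05), the most of the 32 subunits. RPT4, an ATPase of the ring that unfolds substrates, had 12.87, 12.78 and 12.86 at 24 min, against 12.64, 12.62 and 12.62 at steady state. It rose 1.16-fold (0.21 ± 0.04, adjusted p = 0.00224). RPN1, a scaffold and ubiquitin receptor, was next to it at 0.22 ± 0.04 (adjusted p = 0.00129). The other ATPase genes rose by 0.45 in RPT6, 0.42 in RPT2, 0.41 in RPT1, 0.37 in RPT3 and 0.27 in RPT5. The ubiquitin receptor RPN13 rose by 0.40 and the scaffold RPN2 by 0.30. The ATPases form 1 ring, yet their rises thus ran from that of RPT4 to that of RPT6, which was about as high as the median of the core.

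In the lid all 8 genes were higher at 24 min, also with a median of 0.38. RPN7, a structural lid subunit, had 12.89, 12.69 and 12.82 at 24 min, against 12.30, 12.25 and 12.20 at steady state. It rose 1.46-fold (0.55 ± 0.06, adjusted p = 4.17e-05). RPN8, the inactive partner of the deubiquitinase RPN11, had 12.89, 12.97 and 12.96 at 24 min, against 12.67, 12.73 and 12.81 at steady state, and rose the least of the 32 subunits (0.20 ± 0.05, 1.15-fold, adjusted p = 0.00821). RPN5 was the least certain rise, at 0.26 ± 0.09 (adjusted p = 0.0226). It did not pass with the BY005 array of 24 min left out (adjusted p = 0.0651), nor with the steady-state array of BY006 (0.0508) or of BY007 (0.0829) left out. The other lid genes rose by 0.48 in RPN12, 0.43 in RPN9, 0.38 in RPN6, 0.38 in the deubiquitinase RPN11 and 0.30 in RPN3. The ranges of core, base and lid overlapped, from 0.32 to 0.57 in the core, 0.21 to 0.60 in the base and 0.20 to 0.55 in the lid, and no test was made between the subcomplexes.

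BLM10 encodes a large ring-shaped cap that can take the place of the 19S particle on the core. Its level was 11.50, 11.46 and 11.55 at 24 min, against 11.28, 11.25 and 11.35 at steady state. BLM10 rose by 0.21 ± 0.05 (adjusted p = 0.00438), near the smallest rises of the 32 subunits. At 7 min its level was 11.20, 11.30 and 11.23, at 10 min 11.32 and at 14 min 11.24, within or near the range of steady state.

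**Figure D2:**
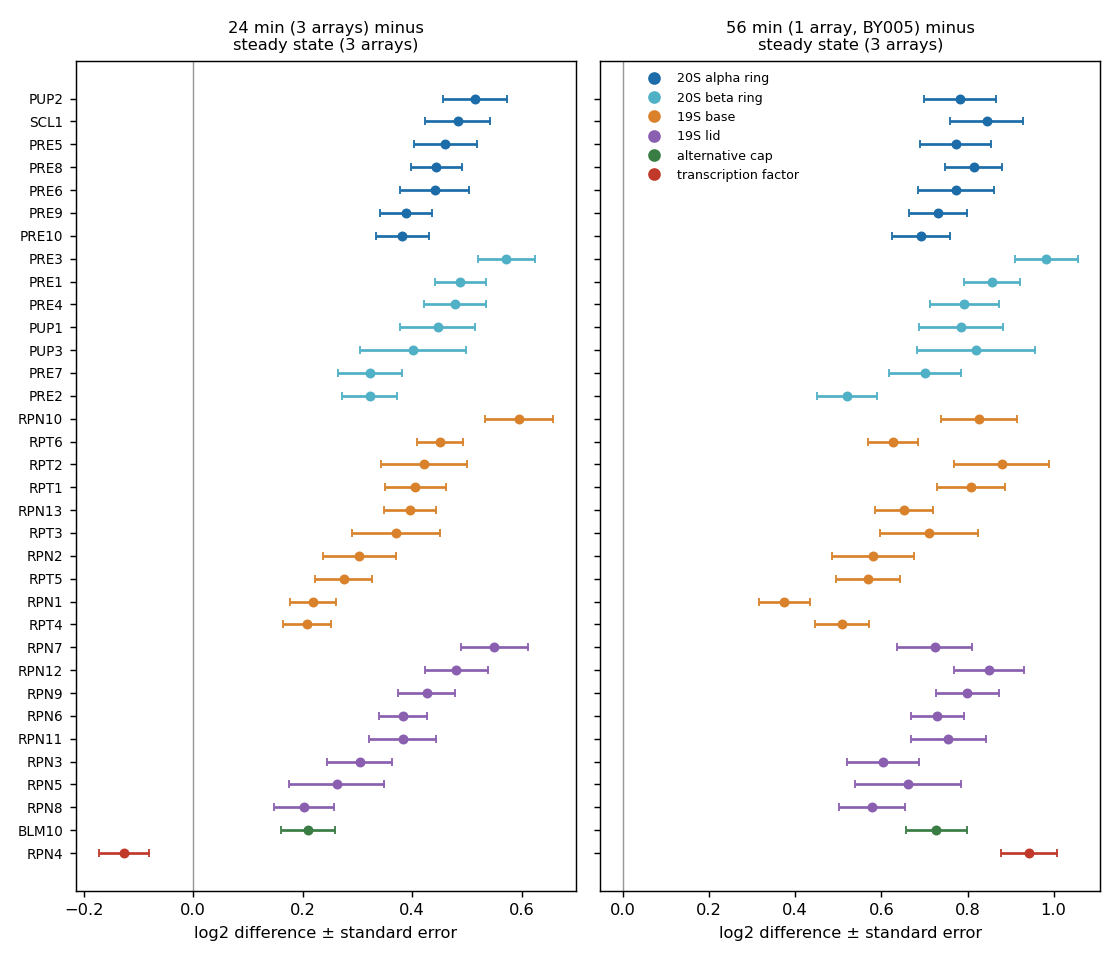
Log2 difference from steady state with the standard error of the fit (horizontal axis, relative to each array's overall distribution) for each of the 34 genes (rows, coloured by subcomplex), on the left at 24 min with 3 arrays against 3 and on the right at 56 min with 1 array against 3. At 24 min all genes lie right of 0 except RPN4 at -0.13, and at 56 min all 34 do, with RPN4 at 0.94 below only PRE3 at 0.98.

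RPN4 was the exception at 24 min, and it had been high before. In BY005 its level was 11.63 at steady state, 11.62 at 3 min, 11.79 at 7 min, 12.05 at 10 min, 11.84 at 14 min, 11.49 at 24 min, 12.56 at 56 min and 12.51 at 120 min. In BY006 it was 11.63, 11.76 and 11.55 at steady state, 7 min and 24 min, and in BY007 11.59, 11.72 and 11.44. Each fermentation thus had its highest level at 7 min and its lowest at 24 min among these 3 times. The fit gave a fall of RPN4 by 0.26 between 7 and 24 min (-0.26 ± 0.05, 24 min minus 7 min, adjusted p = 0.000816), and this call held when any 1 of the 9 arrays of the replicated times was left out. Against steady state it read 0.14 ± 0.05 at 7 min (adjusted p = 0.147), which did not pass although the groups did not overlap, and -0.13 ± 0.05 at 24 min (adjusted p = 0.0319). The call at 24 min did not hold when the steady-state array of BY005 (adjusted p = 0.0806) or of BY006 (0.0882) was left out, nor when that of BY005 (0.0635) or of BY007 (0.121) at 24 min was.

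**Figure D3:**
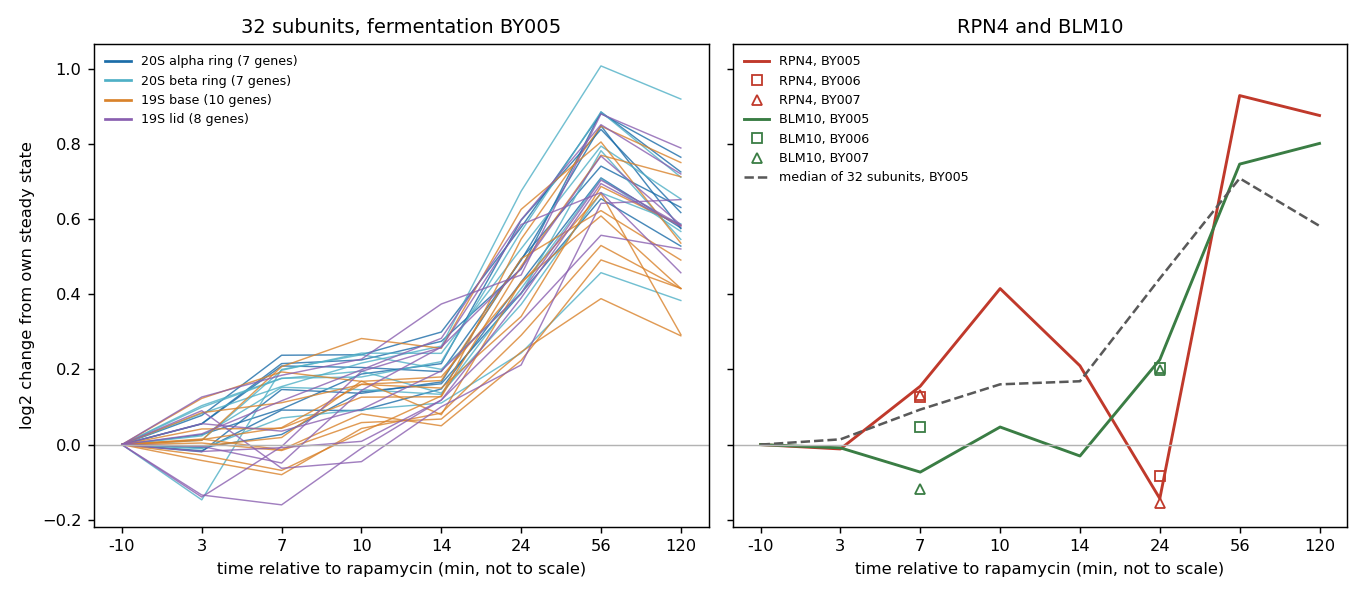
Log2 change from the same fermentation at steady state, relative to each array's overall distribution (vertical axis), against time in order but not to scale, on the left for the 32 subunits in BY005 and on the right for RPN4 and BLM10 with the subunits' median, with points for BY006 and BY007. The subunits' median lies at 0.16 at 10 min, 0.44 at 24 min and 0.71 at 56 min, while RPN4 lies at 0.42, -0.14 and 0.93.

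In the first minutes no gene of the proteasome passed the threshold. At 3 min 0 of the 34 genes passed with limma, 0 had an unadjusted p under 0.05, and 0 of all 5449 genes passed. At 7 min again 0 of 34 passed with limma, and 0.826% of all genes were called higher. An unadjusted p under 0.05 was reached by 4 of the 34, against 1092 of the 5449 genes, or 20.0%. The median difference of the 34 at 7 min was 0.07, with a range from -0.07 to 0.14, and that of all genes was 0.04. By fermentation the median of the 32 subunits was 0.09, 0.04 and 0.06 in BY005, BY006 and BY007. At 7 min 13 of the 34 genes had all 3 arrays above the 3 of steady state and 0 had all 3 below, against 19.4% and 5.25% of all genes.

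Between 7 and 24 min the subunits moved. For 24 min minus 7 min, 33 of 34 genes were called higher, against 39.5% of all genes, and RPN4 alone was called lower, against 30.8% of all genes. The median of the 34 was 0.33, and that of all genes was 0.06. PUP3 did not pass with the BY005 array of 24 min left out (adjusted p = 0.0521), nor with the 7 min array of BY007 left out (0.0571), and RPN5 did not pass in that last case either (0.0533). With the genes quantile-normalized on their own 26 were called higher and RPN4 lower. This comparison shares the 24 min arrays with the one against steady state, so its counts are not a second finding.

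The intermediate times rest on BY005, and the median difference of all genes at 10 min was 0.07. At 10 min 4 of 34 genes were called higher, against 26.6% of all genes, and their median was 0.16. They were RPN4 (0.43 ± 0.06, adjusted p = 0.00135), RPN10, PRE4 and RPN7. With the fermentation as a block, which pairs arrays of one culture, 2 of the 4 were left, RPN4 and RPN10. The count was 1 without the steady-state array of BY006 or of BY007, 2 without the 7 min array of BY007, and 10 without the 24 min array of BY005. At 14 min 10 of 34 were called higher, against 27.3% of all genes, with a median of 0.18 where the median of all genes was -0.01. They were RPN4, 4 lid genes (RPN7, RPN9, RPN11 and RPN12), RPN10 and RPT6 of the base, and PRE1, PRE3 and PRE10 of the core. With the block 4 were left, RPN4, RPN7, RPN9 and RPN11. The count was 4 without the steady-state array of BY007 and 6 without the 24 min array of BY007. The counts at these times also moved with the fit: a prior with an intensity trend gave 11 at 10 min and 20 at 14 min, centring on the median gene 2 and 23, and quantile normalization of the genes alone 1 and 5. How many of the 34 stood out from all genes at 10 and 14 min was thus not settled.

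At 56 min all 34 genes were called higher, against 45.3% of all genes. The median of the 34 was 0.74, or 1.67-fold, and that of all genes was 0.20. The fold of the 32 subunits ran from 1.30 in RPN1 to 1.98 in PRE3, and 26 of them had risen by at least 1.5-fold. PRE3 had 14.04 at 56 min, against 13.04, 13.10 and 13.04 at steady state, and was the brightest of the 34 genes on any array. By subcomplex the medians at 56 min were 0.77 in the alpha ring, 0.79 in the beta ring, 0.64 in the base and 0.73 in the lid. The least rise was that of PRE10 in the alpha ring (0.69), PRE2 in the beta ring (0.52), RPN1 in the base (0.38) and RPN8 in the lid (0.58). RPN4, at 12.56, rose 1.92-fold over steady state (0.94 ± 0.06, adjusted p = 3.23e-06).

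Compared with 24 min, 28 of the 34 genes were called higher at 56 min, against 21.6% of all genes. RPN4 had the greatest difference of the 34 here, 2.1-fold (1.07 ± 0.06, adjusted p = 4.54e-06), followed by BLM10 at 0.52 ± 0.07 (adjusted p = 0.0011). BLM10 stood at 12.02 at 56 min, against 11.50, 11.46 and 11.55 at 24 min. The 32 subunits had a median of 0.34, against 0.09 for all genes. The greatest among the subunits was the ATPase RPT2 at 0.46 ± 0.11. RPN7, RPN10, RPN1, PRE2, RPN2 and RPT3 did not pass. RPN7 and RPN10, which were among the greatest rises at 24 min, read 0.17 ± 0.09 and 0.23 ± 0.09. Both were high on the 24 min arrays, which this comparison subtracts, so a low remainder can follow from naming them. RPN1 and PRE2, among the smaller rises at 24 min, read 0.16 ± 0.06 and 0.20 ± 0.07. RPN2 and RPT3 read 0.28 ± 0.09 and 0.34 ± 0.11. The order of the subunits thus differed between the times, but no test was made of that difference. Centred on the median gene, 17 of the 34 were called.

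At 120 min all 34 were again called higher than at steady state, against 41.4% of all genes, with a median of 0.62 where that of all genes was 0.15. The fold of the 32 subunits ran from 1.21 in RPN1 to 1.86 in PRE3, and 18 of them stood at least 1.5-fold above steady state. Of the 34, 32 had their highest level in BY005 at 56 min, and 2, BLM10 and RPN8, at 120 min. RPN8 was nearly level between these times, with 13.33 at 120 min and 13.32 at 56 min, on 1 array each. BLM10 stood at 12.08 at 120 min and 12.02 at 56 min, a difference of 0.06 ± 0.09 (adjusted p = 0.723). For 120 min minus 56 min, 2 of 34 were called lower, against 7.87% of all genes. They were the ubiquitin receptor RPN13, with 12.51 at 120 min against 12.88 at 56 min (-0.38 ± 0.08, adjusted p = 0.0162), and the alpha ring gene PRE8, with 13.24 against 13.51 (-0.27 ± 0.08, adjusted p = 0.0498). With the block that pairs arrays of one fermentation 1 was left, RPN13. The call of PRE8 held in 5 of 16 refits, with an adjusted p of up to 0.0825, and 1 gene was called without the steady-state or the 24 min array of any fermentation or the 7 min array of BY007.

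Genes that act on RPN4 were read on the same arrays. HSF1, YAP1, PDR1 and PDR3 encode transcription factors known to act on the RPN4 promoter under heat, oxidative or drug stress. Ubr2, a ubiquitin ligase, works with Mub1 and the E2 enzyme Rad6 to mark Rpn4 protein for breakdown. SLT2 encodes the MAP kinase of the cell wall integrity pathway, known in yeast to raise the level of proteasome chaperones after TOR complex 1 inhibition. At 24 min SLT2, UBR2, HSF1, PDR1 and PDR3 were called higher and RAD6 lower, while YAP1 and MUB1 did not pass, against the shares of all genes given above.

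UBR2 had 10.04, 10.12 and 10.04 at 24 min, against 8.75, 8.44 and 9.02 at steady state, where it was more scattered than RPN4. UBR2 rose by 1.33 ± 0.14 at 24 min (adjusted p = 2.9e-05). In BY005 its level was 8.75, 8.73, 9.06, 9.32, 9.44, 10.04, 9.95 and 9.52 from steady state to 120 min. Its difference from steady state at 56 min was 1.21 ± 0.20. Whether UBR2 bears on the course of RPN4 was not tested. RAD6 had 10.89, 10.96 and 10.96 at 24 min, against 11.02, 11.11 and 11.14 at steady state (-0.15 ± 0.05, adjusted p = 0.0278). MUB1 read 0.01 ± 0.05 at 24 min (adjusted p = 0.898) and rose at 56 min, by 0.53 ± 0.07 (adjusted p = 0.000108).

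HSF1 had 10.90, 10.93 and 10.98 at 24 min, against 10.23, 10.44 and 10.49 at steady state, a rise of 0.55 ± 0.07 (adjusted p = 0.000121). At 56 min it rose by 1.01 ± 0.10 (adjusted p = 3.07e-05). YAP1 had 11.95, 11.61 and 11.66 at 24 min, against 11.68, 11.53 and 11.47 at steady state, groups that overlapped, and at 56 min it rose by 0.82 ± 0.14 (adjusted p = 0.000628). PDR1 rose by 0.26 ± 0.05 at 24 min (adjusted p = 0.00112) and by 0.77 ± 0.07 at 56 min (adjusted p = 1.64e-05). PDR3 rose by 0.26 ± 0.06 at 24 min (adjusted p = 0.0043) and read 0.11 ± 0.09 at 56 min (adjusted p = 0.27). SLT2 had 12.93, 12.61 and 12.73 at 24 min, against 11.27, 11.34 and 11.34 at steady state. Its rise was 1.44 ± 0.08 at 24 min (adjusted p = 6.32e-07), 1.82 ± 0.11 at 56 min (adjusted p = 1.68e-06) and 0.38 ± 0.11 at 120 min (adjusted p = 0.0147).

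**Figure D4:**
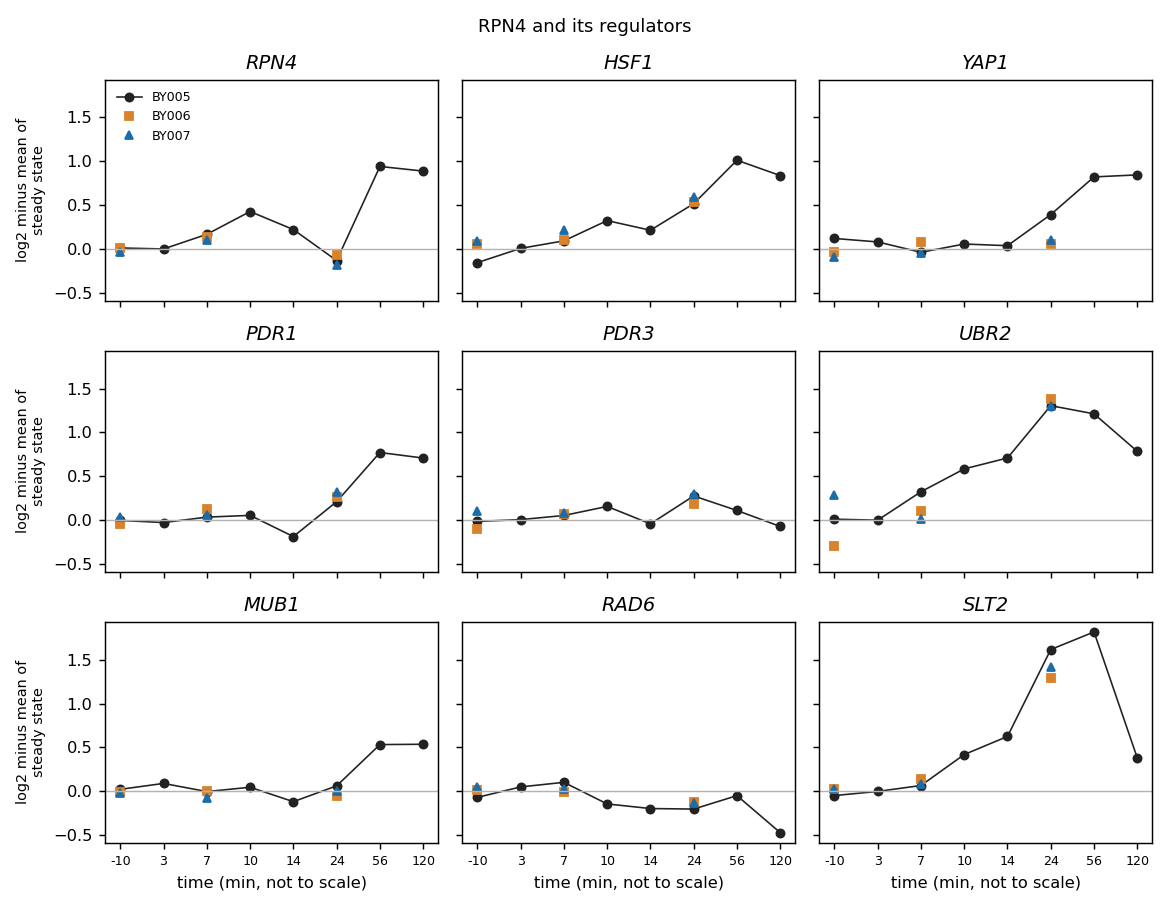
Log2 level minus the mean of the 3 steady-state arrays (vertical axis, relative to each array's overall distribution) against time in order but not to scale for RPN4 and 8 genes that act on it or on proteasome assembly, with a line for BY005 and points for BY006 and BY007. UBR2 and SLT2 lie above 1.2 at 24 min in all 3 fermentations, while RPN4 lies below 0 there and MUB1 near it.

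The helpers that build the proteasome were less uniform than the subunits. Of 10 assembly chaperones, 7 were higher and 1 was lower at 24 min, against 44.5% and 30.4% of all genes, with a median of 0.40. TMA17, also known as ADC17, and NAS2, both chaperones of the base, rose the most, by 1.88 ± 0.18 (adjusted p = 1.74e-05) and 1.18 ± 0.13 (adjusted p = 3.53e-05). POC4, a chaperone of the alpha ring, fell (-0.75 ± 0.07, adjusted p = 1.04e-05). Of 10 factors that associate with the proteasome, 8 were higher and 0 lower at 24 min by limma, against the same shares of all genes, with a median of 0.52. Of the 10, 8 also had an unadjusted p under 0.05. The list includes SEM1, a small protein also counted as a lid subunit. DDI1, a shuttle factor with a protease fold, rose by 1.00 ± 0.07 (adjusted p = 2.17e-06) and HUL5, a ubiquitin ligase bound to the proteasome, by 0.97 ± 0.07 (adjusted p = 1.95e-06). The greatest rise of a subunit, 0.60 in RPN10, was smaller than each of these 4 rises. Those 4 were named because they were the 2 largest called rises of each list, so high values follow in part from the choice. The median of the 32 subunits was 0.40.

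Upstream of the proteasome, all 6 genes for the unfoldase Cdc48 and its cofactors were higher at 24 min, against 44.5% of all genes, with a median of 0.60. NPL4 and UFD1, the cofactors that bind ubiquitin chains, rose by 0.90 ± 0.05 (adjusted p = 5.38e-07) and 0.80 ± 0.06 (adjusted p = 3.92e-06). Of 12 genes for ubiquitin, its E1 and its E2 enzymes, 8 were higher and 1, RAD6, was lower, against 44.5% and 30.4% of all genes, with a median of 0.34. UBC8, an E2 enzyme known for the breakdown of a gluconeogenic enzyme, rose by 1.61 ± 0.13 (adjusted p = 5.74e-06), and the polyubiquitin gene UBI4 by 1.21 ± 0.07 (adjusted p = 6.92e-07).

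Of 10 ligase genes 5 were higher and 2 lower at 24 min, with a median of 0.14, and these counts were near the 44.5% and 30.4% of all genes. UBR2 and HUL4, a ligase gene of the HECT family, rose the most, HUL4 by 1.27 ± 0.13 (adjusted p = 2.05e-05). SAN1, for a nuclear ligase of misfolded proteins, and SSM4, for a ligase of the endoplasmic reticulum, fell (-0.68 ± 0.08, adjusted p = 4.6e-05, and -0.54 ± 0.05, adjusted p = 1.72e-05). Of 10 deubiquitinase genes 4 were higher and 5 lower, against 44.5% and 30.4% of all genes, with a median of -0.24. OTU1, whose product binds Cdc48, and UBP15 rose, by 1.20 ± 0.07 (adjusted p = 7.7e-07) and 0.89 ± 0.06 (adjusted p = 3e-06). UBP10, a nuclear deubiquitinase gene, and UBP1 fell (-2.23 ± 0.11, adjusted p = 3.34e-07, and -1.23 ± 0.07, adjusted p = 8.65e-07). At 7 min 0 genes of these lists passed with limma. By unadjusted p under 0.05, there were at 7 min 3 assembly chaperones, 1 associated factor, 3 Cdc48 genes, 6 genes for ubiquitin and its E1 and E2 enzymes, 2 ligases and 2 deubiquitinases, against 20.0% of all genes.

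**Figure D5:**
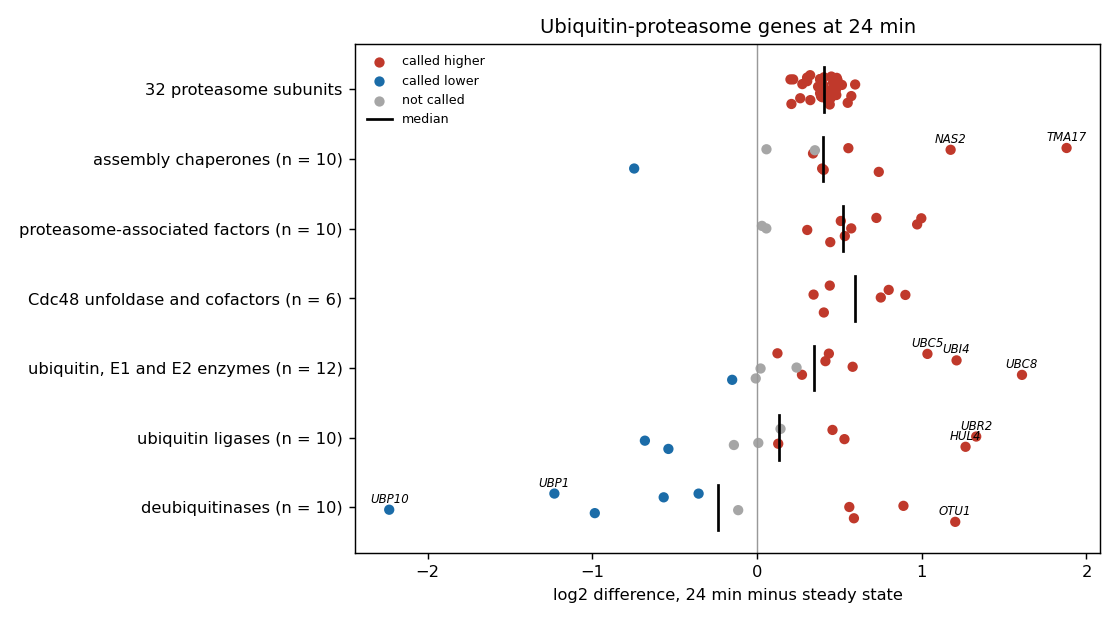
Log2 difference of 24 min minus steady state (horizontal axis, relative to each array's overall distribution) for the 32 subunits and 6 lists of ubiquitin and proteasome genes (rows), with a point for each gene, red for called higher, blue for called lower and grey for not called, and a black bar at the median. The 32 subunits lie between 0.20 and 0.60, while the other lists spread from -2.23 to 1.88.

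The genes whose course was most like that of RPN4 were found by the root mean square of the difference over the 11 arrays taken after the pulse. The nearest were SIS1, FLO10, FRA1, UBC1 and DCK1. SIS1, for an Hsp40 co-chaperone, had a root mean square difference of 0.10, and the others lay between 0.17 and 0.20. The difference of SIS1 at 24 min was -0.16. Nearest to the median course of the 32 subunits were SRV2, YPR148C, YPT1, YMR099C and VMA13, at 0.04 to 0.06. Their differences at 24 min ran from 0.37 to 0.41. These genes were picked for their likeness on arrays that include those of 24 min, so such values follow from the choice. A course like that of the subunits was thus found also among genes outside the proteasome, such as SRV2 for a cyclase-associated protein, YPT1 for a Rab GTPase and VMA13 for a subunit of the vacuolar proton pump.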

How the data were processed

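mRNA was measured on 14 Affymetrix Yeast Genome 2.0 arrays. The deposited values are linear intensities; per the submitters' processing notes, the authors used RMA and the package affy under R 2.10.0. RMA makes the arrays' distributions alike. Values were turned to log2 and averaged per gene over probe sets that the array's annotation gives a single budding yeast gene (5498 of 10928, giving 5449 genes, 47 with several). The genome build is not given in the sources used here, and no sequence is printed. The members, gene lists and tests were chosen with earlier results of these data known. The rule for named genes took RPN4, BLM10, the largest and smallest difference at 24 min in each subcomplex, members not called or lower at 24 min, the regulators, and per list the 2 largest called rises and falls.

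For the tests, lmFit and eBayes of limma 3.58.1 (R 4.3.3) were run on 8 time groups without a block, with 6 residual and 2.43 prior degrees of freedom, and Benjamini-Hochberg adjustment over all genes. The fit was also run on simulated data with independent noise and few changed genes. Those data held no fermentation effect, so that run cannot show how the fit behaves with paired arrays. Arrays of one fermentation come from the same culture, per the labels, so the numbers pair them. Deviations from the group means of such pairs correlated between -0.16 and 0.53. The fit with the fermentation as a block was an alternative. Others were a trended or robust prior, other scalings, a minimum difference, filters and leaving out arrays. The number of arrays limits the precision. P-values of the main fit measure the spread of levels between fermentations within the 3 replicated times. Without the block they do not measure how the change within a fermentation varied between fermentations.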

Additional observations from a re-analysis of the deposited data

How the results depend on the processing

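Apart from scaling to hybridisation controls, 1901 of 1958 refitted values kept their direction and side of the threshold, 22 lost the call, 35 without a call changed sign, and 0 reversed. These cover 116 results: the 34 genes in the 3 comparisons among replicated times, and RPN4 and BLM10 in the other 7. The other subunits at times with 1 array enter below as counts, which also grew under some settings. Scaling to the controls, which spread by several log2 units, left 0 of the 34 genes called in every comparison, with a median standard error of 0.83 at 24 min; all genes of an array shift alike there. It turned the sign of RPN4 at 24 min (0.87), 24 min minus 7 min (0.51), 10 min (-0.12), 14 min (-0.68), 56 min (-0.000503) and 56 min minus 24 min (-0.87), and of BLM10 at 56 min (-0.22) and 56 min minus 24 min (-1.42). The median of the 34 genes turned as well, to -0.83 at 3 min, -0.39 at 10 min, -0.73 at 14 min, -0.20 at 56 min and -1.59 for 56 min minus 24 min, and to 0.51 for 120 min minus 56 min. With a minimum log2 difference of 0.5, 4 of the 34 were called at 24 min, 1 for 24 min minus 7 min, 0 at 10 and 14 min, 2 for 56 min minus 24 min and 0 for 120 min minus 56 min. With the fermentation as a block, which pairs arrays, 2 were called at 10 min, 4 at 14 min and 1 for 120 min minus 56 min; the block changed no other count by over 1.5 times. An intensity trend gave 11 at 10 min and 20 at 14 min. Quantile normalization of the genes alone gave 1 and 5. Centring on the median gene gave 2 and 23, and 17 for 56 min minus 24 min and 1 for 120 min minus 56 min. A robust prior, and leaving out probe sets with a suffix in their name, each gave 1 for 120 min minus 56 min. Leaving out single arrays gave 1 to 10 at 10 min, 4 to 14 at 14 min, 22 to 28 for 56 min minus 24 min, 1 to 2 for 120 min minus 56 min and 32 to 34 at 24 min. Fits to the 9 replicated arrays alone have no value for times with 1 array. The cause of these changes was not tested.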

Other observations

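A pair of proteasome genes stands with 1 other protein-coding gene between them in 2 places of the yeast genome, by the gene order of assembly R64. PRE4 of the beta ring and RPN12 of the lid, with RET2 between them, rose by 0.48 and 0.48 at 24 min and by 0.79 and 0.85 at 56 min. RPT4 of the base and RPN8 of the lid, with GCD1 between them, rose by 0.21 and 0.20 at 24 min, the smallest rises of the base and of the lid, and by 0.51 and 0.58 at 56 min. PRE2 and RPN7, with 4 genes between them, rose by 0.32 and 0.55 at 24 min. These pairs were picked out after their values were seen, and no test was made.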
